A study of Mus musculus with 6 samples.

Results

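The subcortical maternal complex is a protein assembly beneath the cell membrane of the growing oocyte and the early embryo, and 7 of its mouse genes were followed through meiotic maturation: Nlrp5, Ooep, Tle6, Khdc3, Padi6, Zbed3 and Nlrp2. They were taken by name, with every probe set that the array annotation assigns to exactly 1 of these symbols. That gave 8 probe sets for 6 of the 7 genes, of 21646 probe sets and 11429 genes tested. Nlrp2 had no such probe set and was not analysed here. Nlrp5, Ooep, Tle6, Khdc3 and Padi6 each had 1 probe set and Zbed3 had 3, of which the brightest over all arrays stands for the gene.

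Oocytes of 2 stages were compared, with 3 biological replicates each and 300 oocytes per replicate. Germinal vesicle (GV) oocytes, fully grown and arrested in meiotic prophase, came from antral follicles of mice aged 22 to 24 days, primed with 5 IU of equine chorionic gonadotropin (eCG) 44 to 46 h earlier, and only oocytes with an intact germinal vesicle were kept. Mature oocytes in metaphase of meiosis II (MII) came from oviducts of mice of the same age given the same eCG dose and then 5 IU of human chorionic gonadotropin (hCG), with collection 14 h after hCG, and only oocytes with a visible polar body were kept. Medium for both stages contained milrinone at 5 µM, a phosphodiesterase inhibitor that holds immature oocytes in arrest. Cumulus cells were stripped mechanically from GV oocytes and with hyaluronidase from MII oocytes, and the labels used here name no mouse strain. From each sample 10 ng of RNA went through 2 rounds of amplification onto 1 array, so a value stands for a transcript's share of the RNA, and fewer transcripts per oocyte cannot be told apart from a changed total. The question was which mRNAs change in level during maturation and which do not.

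Proteins of the complex are stored in the oocyte and carried into the embryo, where loss of several of them stops development in the first cleavages. NLRP5 (also called MATER), OOEP and TLE6 form the core, KHDC3 (FILIA) joins it, and PADI6, ZBED3 and NLRP2 are further members. Fully grown oocytes transcribe little, so maturation runs largely on stored mRNA, much of which is translated or degraded before fertilization.

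The 250 bases before the annotated transcription start are shown for Nlrp5, the core gene with a small difference between stages, for Khdc3, which had the steepest fall, and for Padi6, whose GV values lay at or near the top of the arrays' range. The sequences are from RefSeq (GRCm38.p6), 5′ to 3′ on the gene's strand, and RefSeq lists 2 starts for Nlrp5. Capitals mark E-boxes, the motif CANNTG, which reads the same on both strands and is bound by basic helix-loop-helix factors, among them the oocyte factor FIGLA.
Nlrp5, first start, chr7:23385639-23385888, plus strand: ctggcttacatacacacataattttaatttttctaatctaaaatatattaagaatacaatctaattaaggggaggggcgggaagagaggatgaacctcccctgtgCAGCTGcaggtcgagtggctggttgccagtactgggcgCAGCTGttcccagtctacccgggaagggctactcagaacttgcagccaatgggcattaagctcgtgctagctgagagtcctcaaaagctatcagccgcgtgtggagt
Nlrp5, second start, chr7:23403852-23404101, plus strand: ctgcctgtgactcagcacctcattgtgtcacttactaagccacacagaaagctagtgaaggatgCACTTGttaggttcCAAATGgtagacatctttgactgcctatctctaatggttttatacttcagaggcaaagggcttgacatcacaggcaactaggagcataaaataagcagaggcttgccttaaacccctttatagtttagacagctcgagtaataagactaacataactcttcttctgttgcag
Khdc3, chr9:73102148-73102397, plus strand: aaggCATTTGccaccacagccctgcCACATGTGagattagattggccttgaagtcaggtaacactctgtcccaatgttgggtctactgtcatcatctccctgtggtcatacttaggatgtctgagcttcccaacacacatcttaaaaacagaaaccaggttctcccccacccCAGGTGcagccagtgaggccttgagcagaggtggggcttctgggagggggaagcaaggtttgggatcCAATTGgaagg
Padi6, chr4:140742644-140742893, minus strand: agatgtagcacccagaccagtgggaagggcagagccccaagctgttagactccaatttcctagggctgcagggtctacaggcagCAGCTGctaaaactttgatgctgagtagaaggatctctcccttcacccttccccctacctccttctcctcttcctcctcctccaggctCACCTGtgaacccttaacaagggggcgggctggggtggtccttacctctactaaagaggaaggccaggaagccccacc

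Each Nlrp5 window held 2 E-boxes. They began 145 and 107 bases before the first start, both with the core CAGCTG, and 186 and 172 bases before the second. The Khdc3 window held 5, of which 2 overlap, and the one nearest the start began 11 bases before it. The Padi6 window held 2, beginning 166 and 78 bases before the start. Windows were found for all 7 genes, 11 in all, and 10 of the 11 held the motif, against 66.2% of 32841 such windows in the table. The window of Nlrp2 held none. These are matches of letters and not binding sites, and they were found alike before the genes that fell and before Nlrp5.

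Of the 6 measured genes, Ooep, Tle6, Khdc3 and Padi6 fell between the GV and the MII stage, while Nlrp5 and Zbed3 were not called. On the deposited scale the falls ranged from 3.96-fold for Ooep to 11.2-fold for Khdc3, and their sizes depended on the scale between arrays. A gene was called where the Benjamini-Hochberg adjusted p of the limma fit over all probe sets was under 0.05, and differences are given on the log2 scale as MII minus GV. By the same rule 37.8% of all genes were called lower and 10.5% higher, so 4 of 6 members lay above the share for all genes in the falls, and 0 of 6 were called higher. The median difference was -2.10 over the 6 members and -0.20 over all genes. The members were chosen with earlier results of these data known, so these counts describe the set and are no independent support.

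**Figure D1:**
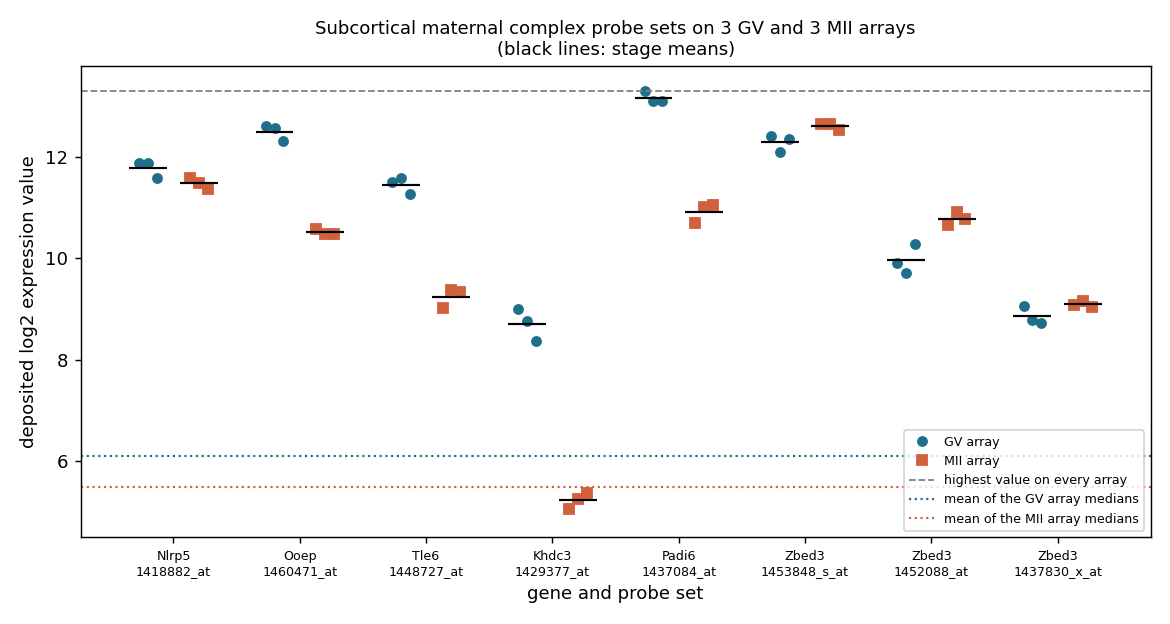
Deposited log2 expression value (vertical axis) of each of the 8 probe sets (horizontal axis) on the 3 GV arrays (circles) and 3 MII arrays (squares), with stage means as black lines, the highest array value as a dashed line and the mean array medians as dotted lines. Ooep, Tle6, Khdc3 and Padi6 have all MII arrays below all GV arrays, Nlrp5 shares 1 value between the stages, and Khdc3 alone ends below the MII array medians.

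Nlrp5 encodes a leucine-rich repeat protein of the NLR family that anchors the core. On the deposited log2 scale it was at 11.88, 11.88 and 11.58 on the GV arrays and at 11.58, 11.48 and 11.37 on the MII arrays. The lowest GV value and the highest MII value were the same number, so the stages touched without separating. The difference was -0.30 ± 0.15 (SE, 3 arrays per stage), with a 95% confidence interval of -0.63 to 0.02 and an adjusted p of 0.12 (limma). A missed threshold does not show stability, so the difference was also tested against fixed bounds with 2 one-sided moderated tests in limma. Nlrp5 lay within 2-fold (adjusted p = 0.0012), as did 62.7% of all genes, but was not shown to lie within 1.5-fold (adjusted p = 0.11), where 24.9% of all genes were. Nlrp5 had been picked out as the stable gene among falling partners from these same arrays, so these tests describe it and are no independent support. They hold for the deposited scale: Nlrp5 was at -0.71 (95% interval -1.43 to 0.01) with hybridization controls made equal. Equal poly-A controls put it at -1.18 and called lower. These controls were at 4.28 to 4.71 on GV and at 5.14 to 5.43 on MII arrays. Making them equal shifted every difference by -0.87, and the call rests largely on that shift. Its error also carries the spread of the controls.

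Ooep, a small KH-domain protein of the core, gave 12.62, 12.56 and 12.31 on the GV arrays and 10.58, 10.48 and 10.47 on the MII arrays. The stages were separated by more than 1.5 log2 units and the MII arrays lay close together. The fall was 3.96-fold, a difference of -1.99 ± 0.14 (SE) with an adjusted p of 1.4e-06 (limma).

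Tle6, a member of the Groucho family of co-repressors and the third core protein, was at 11.51, 11.58 and 11.27 in GV and at 9.01, 9.37 and 9.33 in MII oocytes. Every MII array was below every GV array. The difference of -2.22 ± 0.16 (SE) is a 4.65-fold fall, with an adjusted p of 1.4e-06 (limma).

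Khdc3, a KH-domain protein tied to chromosome segregation in early embryos, had GV values of 8.99, 8.76 and 8.37 and MII values of 5.05, 5.26 and 5.36. Its GV arrays spread the most of the 6 genes (SD 0.31), yet the stages were far apart. The difference was -3.48 ± 0.18 (SE), an 11.2-fold fall with an adjusted p of 1.8e-07 (limma). All MII values were below the medians of their arrays, which were 5.47 to 5.49, and how far they lay above background was not tested. The difference was -2.86 with array medians made equal and -2.92 after quantile normalization, so the fold holds for the deposited scale.

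Padi6 is the oocyte member of the peptidylarginine deiminase family and is needed for the cytoplasmic lattices, fibrous structures that store proteins and ribosomal components. Its GV values were 13.30, 13.10 and 13.10 and its MII values 10.70, 11.02 and 11.05. GV replicate 1 was at the highest value of the arrays and the other 2 GV replicates were 0.20 below it, and all MII values were more than 2 log2 units below all GV values. The measured difference was -2.24 ± 0.15 (SE), a 4.73-fold fall with an adjusted p of 9.6e-07 (limma). With array medians made equal it was -1.62. Whether the top of the range cut the GV values, and so the fall, was not tested.

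Zbed3, a zinc finger protein that binds Axin and takes part in spindle positioning, went the other way in each of its 3 probe sets. The brightest, probe set 1453848 of type _s_at, was at 12.41, 12.09 and 12.35 in GV and at 12.65, 12.65 and 12.52 in MII oocytes. All MII arrays were above all GV arrays, but the difference of 0.32 ± 0.14 (SE) was not called (limma adjusted p = 0.095), and its interval ran from 0.003 to 0.64. On the deposited scale this probe set lay within 2-fold between stages (adjusted p = 0.0012) and was not shown to lie within 1.5-fold (adjusted p = 0.12, limma).

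The other probe sets of Zbed3 differed in call. Probe set 1452088 (_at) was at 9.91, 9.70 and 10.28 in GV and at 10.65, 10.91 and 10.78 in MII oocytes, again with no overlap. It was called higher by 0.82 ± 0.17 (SE, limma adjusted p = 0.0031), and is the only one of the 3 outside the types _s_at and _x_at, which can match several transcripts. Probe set 1437830 (_x_at) differed by 0.24 ± 0.14 (adjusted p = 0.21, limma) with the stages overlapping. Over the 8 probe sets of the complex, 4 were called lower and 1 higher, against 34.1% and 10.9% of all probe sets.

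The MII arrays lay wholly below the GV arrays for 4 of the 6 genes, as for 43.3% of all genes, and wholly above them for Zbed3, as for 14.6%. Among the GV arrays, replicate 3 was the lowest or tied lowest for 5 of the 6 genes, all but Zbed3. The median spread within a stage was 0.15 over the members and 0.19 over all probe sets (pooled SD, log2), so each of the 4 falls was larger than the spread of its replicates.

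The falls were of unequal size within the same arrays. Subtracting the Nlrp5 value of each array from every probe set removes any shift common to an array, and the fit was repeated on these differences. Relative to Nlrp5, Ooep was at -1.68 ± 0.18, Tle6 at -1.91 ± 0.20, Padi6 at -1.94 ± 0.20 and Khdc3 at -3.18 ± 0.20 (SE), with limma adjusted p of 1.2e-06, 8.8e-07, 1.0e-06 and 3.3e-09. By this measure 26.4% of all genes were called lower and 20.7% higher than Nlrp5. Nlrp5 and its falling partners had been picked out from these same arrays, so these p-values describe the contrast and are no independent support. The Ooep values minus those of Nlrp5 were 0.74, 0.68 and 0.72 on GV arrays and between -1.0 and -0.90 on MII arrays, so they differed little among arrays of a stage.

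Zbed3 rose relative to Nlrp5 by 0.62 ± 0.20 (SE, limma adjusted p = 0.016). Its other probe sets rose by 1.12 and 0.54 relative to Nlrp5, both called. For the brightest probe set the call was lost with no moderation of the variance (adjusted p = 0.060), without GV replicate 2 (0.48, adjusted p = 0.099) and without MII replicate 2 (0.60, adjusted p = 0.055). Such a comparison shows unequal change and not that either gene stayed the same. Subtraction also gives every probe set the measurement error of the 1 Nlrp5 probe set, so the limma p-values here rest on a spread that is partly shared.

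**Figure D2:**
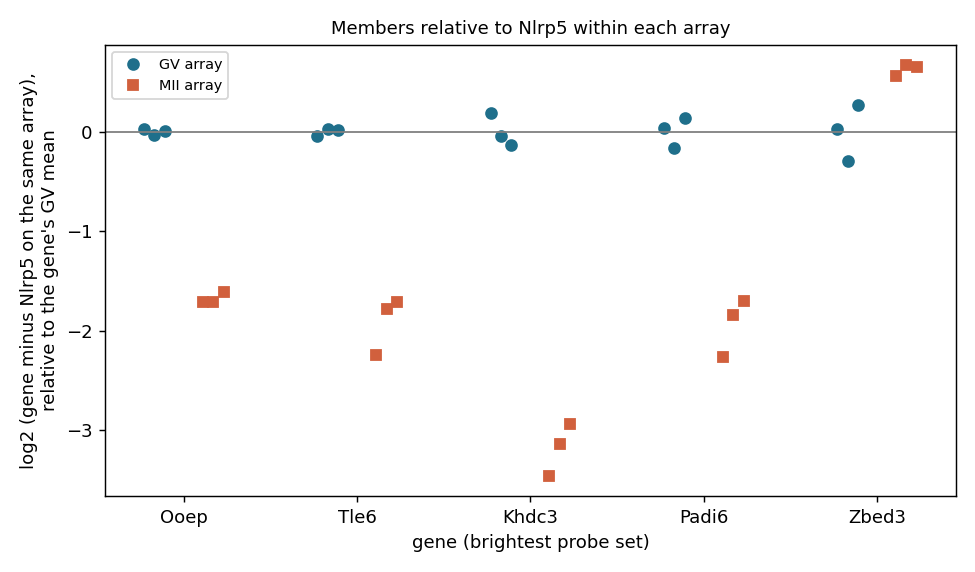
Log2 value of each gene minus that of Nlrp5 on the same array, set to a GV mean of 0 (vertical axis), for 5 members (horizontal axis) on GV arrays (circles) and MII arrays (squares). The means of Ooep, Tle6, Khdc3 and Padi6 over the MII arrays lie between -3.18 and -1.68, and all MII arrays of Zbed3 lie above all its GV arrays.

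All 15 pairs of the 6 genes were compared in the same way, without moderation of the variance, a set of comparisons chosen after the values were seen. Adjusted over all probe sets, 11 of the 15 pairs differed. The difference of Khdc3 minus that of Ooep was -1.5 and minus that of Tle6 -1.27, and that of Padi6 minus that of Khdc3 was 1.24, with adjusted p of 0.0013, 0.0011 and 0.0011 (limma's linear model). The other 3 falls were not told apart: Tle6 minus Ooep was -0.23 (95% interval -0.65 to 0.19), Padi6 minus Ooep was -0.25 (-0.71 to 0.20) and Padi6 minus Tle6 was -0.02 (-0.30 to 0.25). The fourth pair not called was Zbed3 with Nlrp5. A call in this set is common: 31.7% of all genes differed from Nlrp5, 89% from Ooep, 89.7% from Tle6, 96% from Khdc3 and 89.5% from Padi6.

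The place of each gene within its own array does not depend on the scale between arrays. On the GV arrays 177 to 250 probe sets were above Nlrp5, and on the MII arrays 213 to 282, so it kept a place within the top 1.30% at both stages. Ooep had 53 to 80 probe sets above it in GV and 654 to 750 in MII oocytes. Tle6 moved from 283 to 408 above it to 1836 to 2347, and Khdc3 from the upper 20.2% of each array to a place below 52.2% to 56.9% of probe sets. These moves down the array ran the same way as the falls in value.

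For Padi6, GV replicate 1 was at 13.30, the highest value on any array, which 8 other probe sets on that array shared. On the other GV arrays 8 and 4 probe sets were above it, and in MII oocytes 392 to 578. Zbed3 moved toward the top, from 71 to 114 probe sets above it in GV to 24 to 32 in MII oocytes. Its brightest probe set was 0.65 to 0.77 below the maximum on the MII arrays and 0.88 to 1.2 below it on the GV arrays.

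Values at the top were also coarse. All arrays drew on the same set of 7077 distinct values, of which 5 lay at 13 or above, 56 from 12 to 13 and 133 from 11 to 12. The median step between neighbouring values was 0.044, 0.016 and 0.0068 in these ranges. Nlrp5, Padi6 and Zbed3 each had repeated numbers among their arrays. For Padi6 in GV oocytes the next value above 13.10 was 0.115 higher, about the size of its SD among those arrays (0.11). Among the 217 probe sets in the top 1% by GV mean, 37.3% were called lower and 6.45% higher, and the median difference was -0.13.

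How far Nlrp5 and Zbed3 moved depended on the scale between arrays, while the 4 falls did not change direction or call. With array medians made equal, which raised the median difference of all probe sets by 0.62, the 4 falls lay between -2.86 and -1.36, Nlrp5 was at 0.32 and not called, and Zbed3 was called higher at 0.94. After quantile normalization (a shift of 0.34) Nlrp5 was at -0.15 and not called, and Zbed3 was called higher at 0.46. With hybridization controls made equal (a shift of -0.40) Nlrp5 was at -0.71 and Zbed3 at -0.084, neither called. With poly-A controls made equal (a shift of -0.87) both were called lower, Nlrp5 at -1.18 and Zbed3 at -0.55, and the 4 falls lay between -4.36 and -2.86. In these scalings, in the same order, 22.5%, 24.5%, 36.7% and 86.5% of all genes were called lower and 52.2%, 34.5%, 0.437% and 0.271% higher. Calls under either control scaling depend on how far the controls differed between the stages. Every probe set then also carries the spread of the controls between arrays.

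**Figure D3:**
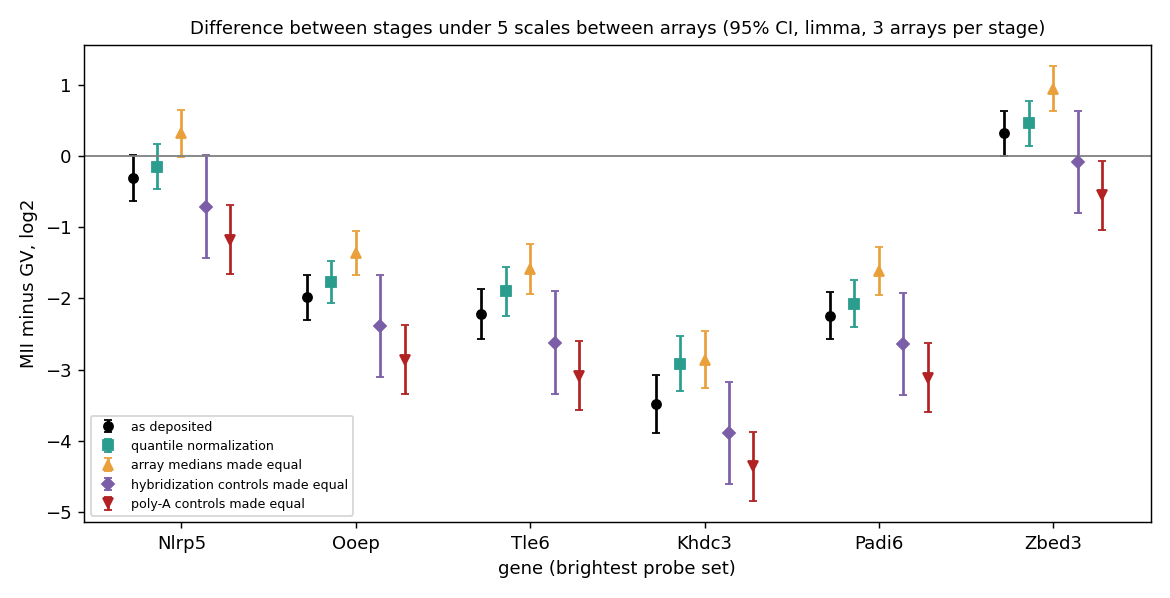
MII minus GV difference on the log2 scale (vertical axis, with 95% confidence intervals from limma, 3 arrays per stage) for 6 genes (horizontal axis) under 5 scales between arrays. Ooep, Tle6, Khdc3 and Padi6 stay below 0 in each, while Nlrp5 ranges from -1.18 to 0.32 and Zbed3 from -0.55 to 0.94.

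Genes related to the complex by family, partner or role fell in 21 and rose in 11 of 73 measured cases on the deposited scale (28.8% and 15.1%), against 37.8% and 10.5% of all genes. This balance depended on the scale. With array medians made equal 12 fell and 46 rose, against 22.5% and 52.2% of all genes. With poly-A controls made equal 60 fell and 2 rose, against 86.5% and 0.271% of all genes. Of 10 measured Nlrp paralogs of Nlrp5, 2 fell and none rose, a smaller share of falls than the 37.8% of all genes, with a median of -0.12: Nlrp9b was at -1.28 ± 0.15 and Nlrp14, an oocyte Nlrp gene needed by the early embryo, at -1.13 ± 0.19 (SE), both called lower in all 5 scales. Nlrp4f, which has been described with the complex, was at -0.15 ± 0.14 and not called. With array medians made equal 8 of the 10 were called higher, against 52.2% of all genes. With poly-A controls made equal all 10 were called lower, against 86.5% of all genes.

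Among 3 measured KH-domain relatives of Ooep and Khdc3, Dppa5a, a pluripotency-associated RNA-binding protein, fell by 4.43 ± 0.18 (SE), called in all 5 scales. Khdc1a rose by 0.68 ± 0.21, a call lost with either set of controls made equal, with a value of -0.19 for poly-A controls, and Khdc1b was at 0.33 and not called. Of 7 paralogs of Tle6, Padi6 and Zbed3, 2 fell and 0 rose, against 37.8% and 10.5% of all genes. The median of the 7 was -0.19, and the 2 that fell were Zbed5 at -0.89 ± 0.13 and the co-repressor gene Tle1 at -0.52 ± 0.15. With array medians made equal Zbed5 was at -0.27 and Tle1 at 0.10, and after quantile normalization they were at -0.21 and 0.004, none of these called. Most of these 7 genes were dim, with 2 brighter than the median probe set.

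The list of other maternal effect genes, needed in the egg for the embryo to develop, had 29 members measured. Of these 7 fell and 6 rose, with a median of -0.005, so falls were below and rises above their shares among all genes (37.8% and 10.5%). These calls use the brightest probe set of each gene. Smarca4 and Ago2, called lower, each had another probe set called higher (1.02 and 0.60). Dicer1, Dnmt3a and Uhrf1, not called, had others called lower (-2.90 for Dicer1, -2.87 and -1.52 for Dnmt3a, -0.60 for Uhrf1). Dnmt1, the maintenance DNA methyltransferase, was at -2.30 ± 0.15 and its relative Dnmt3l, a cofactor of de novo methylation, at -2.20 ± 0.21. Zfp57, which guards imprints, was at 1.65 ± 0.18 and Uchl1, a deubiquitinating enzyme, at 1.55 ± 0.14 (SE), and all 4 kept their call in the 5 scales. On the MII arrays Zfp57 had values of 13.10, 13.05 and 13.05, near the highest array value of 13.30. Whether the top of the range cut its rise was not tested.

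Among 17 genes of pathways that partners of the complex act in, 7 fell and 3 rose, with a median of -0.07, and the share of falls was near the 37.8% of all genes. The actin-severing protein genes Cfl2 and Dstn were at -3.35 ± 0.14 and -2.89 ± 0.16, called in all 5 scales, although 2 other probe sets of Cfl2 were at -0.15 and -0.13 and not called. The cofilin phosphatase gene Ssh1 was at 0.85 ± 0.27 with 2 other probe sets called lower, and the protein kinase A gene Prkaca at 0.81 ± 0.21. Both rises were lost with either set of controls made equal, where poly-A controls put them at -0.019 and -0.066. Of 9 oocyte transcription regulators 3 fell and 1 rose, near the 37.8% and 10.5% of all genes. The homeobox genes Nobox and Lhx8 were at -2.23 ± 0.17 and -2.12 ± 0.13, called in all 5 scales, and Figla, the E-box factor of oocytes, at -1.22 ± 0.16. Gata4 was at 0.69 ± 0.17 and lost its call with either set of controls made equal, at -0.18 for poly-A controls.

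**Figure D4:**
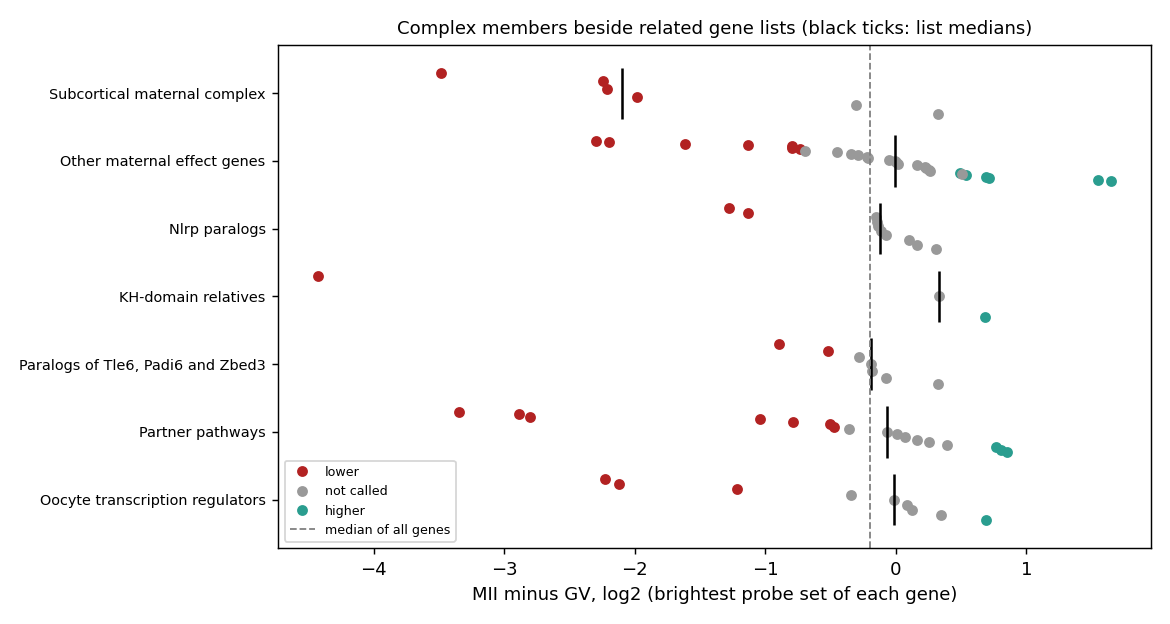
MII minus GV difference on the log2 scale (horizontal axis) of each gene, 1 point per gene by its brightest probe set, for the complex and 6 related lists (vertical axis), coloured by call, with list medians as black ticks and the median of all genes dashed. The median of the complex is -2.10 and those of the related lists lie between -0.19 and 0.33.

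Across probe sets the arrays correlated at 0.988 to 0.991 within a stage and at 0.885 to 0.906 between stages. All 10 measured oocyte markers were brighter than the median probe set, and 5 fell and 2 rose, against 37.8% and 10.5% of all genes. The zona pellucida genes Zp2 and Zp3 were at -4.26 and -2.76, called in all 5 scales, while the growth factor gene Bmp15 at 0.69 and the oocyte linker histone gene H1f8 at 0.66 lost their calls with either set of controls made equal. Bmp15 has 2 further probe sets, which pointed the other way (-0.22 and -0.33, neither called). Of 9 measured granulosa and cumulus markers 2 were brighter than the median probe set. Inhba (-1.40), Fshr (-0.51) and Nr5a2 (-0.85) were called lower in MII oocytes and none higher, a share of falls near the 37.8% of all genes. With array medians made equal 1 was called lower and 4 higher, against 22.5% and 52.2% of all genes. The mean log2 value over the 9 granulosa and cumulus markers was 4.74 to 4.79 on GV and 4.28 to 4.52 on MII arrays. The part of these cells in the falls of the complex was not tested.

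By the profile over all 6 arrays, the genes nearest to Nlrp5 were Sqle, an enzyme of cholesterol synthesis, Foxl2, a transcription factor of granulosa cells, and the RNA helicase gene Dhx30. Only genes brighter than the median probe set were compared, 6573 in all. The root mean square distances of these 3 genes from Nlrp5 were 0.035, 0.053 and 0.057 (log2 values centred per gene). Their own differences were -0.33, -0.26 and -0.24. The genes nearest to Khdc3 were Cc2d1a, Mxd4 and the pseudogene Hmga2-ps1, at distances of 0.055, 0.10 and 0.12, with differences of -3.42, -3.54 and -3.42. A separate probe set for the pseudogene Nlrp5-ps was at 2.99 ± 0.03 in GV and 2.87 ± 0.13 in MII oocytes (SD, n = 3), and its difference of -0.13 was not called (limma adjusted p = 0.48).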

How the data were processed

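Gene expression was measured in 3 GV and 3 MII oocyte samples, 1 array each. The authors deposited log2 expression values for 21702 probe sets, made with RMA and affy per the submitters' processing notes. Versions, filters and a genome build were not given in the sources used here. The distinct values were the same on every array, with 1 highest value for all of them.

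After 56 control features were set aside, 21646 probe sets were fitted with limma 3.58.1 (R 4.3.3; lmFit and eBayes, MII minus GV, 2-sided), with Benjamini-Hochberg adjustment over all of them and a threshold of 0.05. The residual degrees of freedom were 4, with 5.78 added by the prior (11.3 for values relative to Nlrp5). The 19078 probe sets with 1 symbol represented 11429 genes, each by its brightest probe set. Symbols came from the platform annotation and matched RefSeq GRCm38.p6 for 11386 genes with 0 changes. The number of arrays limits the precision. The series' design text calls the samples biological replicates. The fit was tested on simulated data with independent noise for each probe set, which held no shift between arrays and no top value. That test does not bear on the scale between arrays or on the top of the range.

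Alternatives were 4 scales between arrays, no moderation, a filter on low values, other probe set rules, each replicate left out, and a replicate block. Named genes were all members, in each related list up to 2 called genes with the largest rise and 2 with the largest fall (clone names left out, or the 2 brightest where none was called), and the 3 genes nearest in profile to Nlrp5 and to the member with the steepest fall. Nlrp4f, Khdc1b and Figla were named after their values were seen, as were Fshr and the other probe sets. The same holds for Smarca4, Ago2, Dicer1, Dnmt3a and Uhrf1. The members and lists were chosen with earlier results of these data known. No protein sequences were used here.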

Additional observations from a re-analysis of the deposited data

How the results depend on the processing

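The 4 falls kept their direction and call under every alternative run, with 4 members called lower in each except poly-A controls made equal, where 6 were. With each replicate left out, Ooep ranged from -2.08 to -1.93, Tle6 from -2.31 to -2.10, Khdc3 from -3.65 to -3.34 and Padi6 from -2.31 to -2.13, while Nlrp5 (-0.40 to -0.25) and Zbed3 (0.22 to 0.38) stayed not called. Nlrp5 was at 0.32 with array medians made equal and called lower at -1.18 with poly-A controls made equal. The number of members called higher was 0 as deposited and 1, Zbed3, with array medians made equal (0.94), under quantile normalization (0.46), with the mean of its probe sets (0.46) and without _s_at, _x_at and _a_at probe sets (0.82). Zbed3 was at -0.084 with hybridization controls and called lower at -0.55 with poly-A controls made equal. Relative to Nlrp5, Zbed3 lost its call with no moderation (0.62) and ranged from 0.48 to 0.76 with each replicate left out. With bounds of 2-fold in place of 1.5-fold, 2 members lay within them, against 0. The related lists, with 73 genes measured, held 21 falls and 11 rises as deposited, 12 and 46 with array medians made equal, 13 and 30 after quantile normalization, 22 and 2 with hybridization controls made equal, and 60 and 2 with poly-A controls made equal. In the same order, 37.8%, 22.5%, 24.5%, 36.7% and 86.5% of all genes were called lower. Called higher were 10.5%, 52.2%, 34.5%, 0.437% and 0.271% of all genes. Either control scaling gives every probe set the spread of the controls between arrays, so its p-values are not printed. Its calls depend on that spread and on how far the controls differed between the stages. The cause of these changes was not tested.

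With the replicate block, which only the samples numbered 2 and 3 allow since the first of each stage has no number, 4 members fell, none was called higher and Nlrp5 was at -0.31. The deviations of same-numbered samples from their stage means correlated at 0.029 and 0.027, and those of other pairs across stages at -0.28 to 0.29. With so few arrays this does not show whether same-numbered samples had more than a number in common. The block moved no call among the members, and the same 4 samples without it, a fit added after seeing the data, also gave 4 falls. Background was not measured apart from signal, which limits low values such as those of Khdc3 in MII oocytes.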
